A study of Mus musculus with 6 samples.

Results

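Long intergenic noncoding RNA (lincRNA) genes were described across 6 RNA sequencing libraries of mouse 32D cells. They were taken as the rows whose deposited biotype is lincRNA and whose mean over the 6 libraries is at least 2 FPKM, where FPKM is a fragment count corrected for how long the transcript is and how deep the library. The rule kept 244 genes, out of 3707 lincRNA rows and 47606 rows of every biotype. They were thus chosen by their mean FPKM, and their levels are given as a description. By symbol, 25 carry a proper name (such as Neat1 or Snhg6), 131 a predicted-gene symbol starting with Gm, 73 a cDNA symbol ending in Rik, and 15 another clone symbol.

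The 32D line is a mouse myeloid line that depends on interleukin 3, here supplied at 1 ng/mL. Every library comes from cells with dCas9-KRAB, a Cas9 that binds DNA without cutting it, joined to a repressor domain. Lentivirus added guide sg5 (2 libraries), guide sg2 (2 libraries) or an empty vector, EV (2 libraries), and all 3 groups were then under puromycin for a week. The series concerns a CEBPE enhancer, CEBPE being a factor that acts late in the making of granulocytes, and the design sets the sg2 and sg5 knock-down against EV. Within each group the labels number the replicates 1 and 2. By its title 1 library is sg5 replicate 2, while its other labels say sg2; the title was followed. Neither guide's sequence nor its target site is stated in the sources used.

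A lincRNA is transcribed like a messenger RNA, usually spliced and polyadenylated, but is not known to be translated into a protein. A few have a known place of action: Neat1 builds the paraspeckle, a nuclear body, and Malat1 collects in nuclear speckles, where splicing factors are stored. Others matter mainly for what lies in their introns or exons, such as small nucleolar RNAs (snoRNAs) that guide ribosomal RNA modification, or microRNAs. Most carry no assigned function.

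The libraries hold between 31500000 and 45600000 implied fragments, so 2 FPKM over 1 kb corresponds to between 63.0 and 91.2 fragments. As a check of the labels, Cebpe stood at 14.4 and 18.7 FPKM in the sg2 libraries, at 19.4 and 22.7 FPKM in the sg5 libraries, and at 42.0 and 100.4 FPKM in EV. Of 9 myeloid progenitor markers, the sum ranged over 729 to 1018 FPKM under the guides and 855 to 887 FPKM under EV, and Kit was listed at 0 in all 6. The sum of maturing neutrophil markers ranged over 132 to 188 FPKM under the guides and 446 to 679 FPKM under EV, with Retnlg at 0 in all 6 and Camp at 0.262 FPKM or less. The sum of eosinophil markers ranged over 8.91 to 61.9 FPKM under the guides and 76.4 to 253 FPKM under EV. Histone genes summed to 206 and 188 FPKM in the replicates 2 of sg2 and sg5, and to between 61.6 and 81.4 FPKM in the other 4 libraries. Their part in the results was not tested. In bulk RNA, fewer cells of a type and less RNA per cell cannot be told apart. Whether replicates are separate cultures is not labelled; the p-values therefore reflect only how these particular samples vary, and that variation may be technical.

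The lincRNA genes spanned a wide range of levels. The median gene averaged 5.36 FPKM over the 6 libraries, 71 genes averaged at least 10 FPKM, 10 averaged at least 100 FPKM, and 114 averaged under 5 FPKM. Genes with a proper name had a median of 11.7 FPKM, against 5.15 FPKM for the rest. Of the 244, 241 were above 0 in all 6 libraries. Together they made up between 0.613% and 0.850% of the summed FPKM of a library, and between 58.5% and 62.6% of that came from the 10 highest in that library.

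The gene of highest mean was Gm43549 (chr3:55578105-55582730, minus strand, GRCm38), a predicted lincRNA with no assigned role. It measured 1055, 1082 and 1013 FPKM in the libraries numbered 2 of sg2, sg5 and EV, and 497, 507 and 509 FPKM in those numbered 1. Neat1 (chr19:5824708-5845478, minus strand) came second with a mean of 505 FPKM. Gm16194, Gm26880 and AY036118 followed at 500.1, 468 and 403 FPKM on average, and Gm26825, 4930519L02Rik, Gm26619, AI662270 and Gm12648 at between 117 and 279 FPKM. At the lower edge, Gm13291, Gm15706 and Gm26542 averaged 2.02, 2.01 and 2.00 FPKM and were kept, while RP23-81F19.2, Gm26510 and AI838599 averaged 1.97, 1.96 and 1.94 FPKM and were not.

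In the GENCODE M21 annotation AY036118 lies with Gm42418 and Gm26917 in chr17:39843013-39848788 (GRCm38). There RefSeq lists Gm42418 as a synonym of Rn18s-rs5, an 18S ribosomal RNA related pseudogene. RefSeq gives AY036118 another span, chr17:39848112-39898385, most of it outside that interval. Fragments of near-identical ribosomal RNA copies could be divided among these 3 rows, so their values are uncertain. AY036118 measured 391 and 651 FPKM in the replicates 2 of sg2 and sg5 and 241 and 451 FPKM in their replicates 1, against 521 and 161 FPKM in EV replicates 2 and 1. The 3 rows made up between 0.0253% and 0.0860% of the summed FPKM of a library.

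Of the 244 genes, 239 were found by gene ID in the GENCODE M21 annotation (GRCm38). It still calls 207 of them lincRNA, 10 antisense, 9 bidirectional-promoter lncRNA and 8 processed transcript. It calls 3 protein coding, namely Kantr, Platr25 and D830044I16Rik. Chromosome 5 holds 31 of the genes, chromosome 1 holds 23 and chromosome 17 holds 22. None lies near Cebpe on chromosome 14: the nearest of the 6 genes there, Gm16973, starts 1989 kb away.

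Their annotated position differed from that of lincRNA rows that were low or silent here. A coding gene started within 1 kb on the opposite strand, pointing away, for 46 genes, or 19.2% of those annotated. The share was 10.01% among lincRNA rows above 0 with a mean under 2 FPKM, and 2.28% among rows at 0 in every library. The median distance to the nearest coding start was 11.6 kb for the 244 genes, 33.4 kb for the lower rows and 103 kb for the silent rows. Single-exon genes made up 17.6%, 8.32% and 6.88% of these 3 sets, and the median longest transcript was 1375, 1452 and 737 nt long. These shares are descriptions without a test. The span of 47 of the 244 genes overlaps a coding gene, on the same strand for 9, and strand was not stated to be used in the counting. Reads of such overlapping pairs cannot be told apart.

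**Figure D1:**
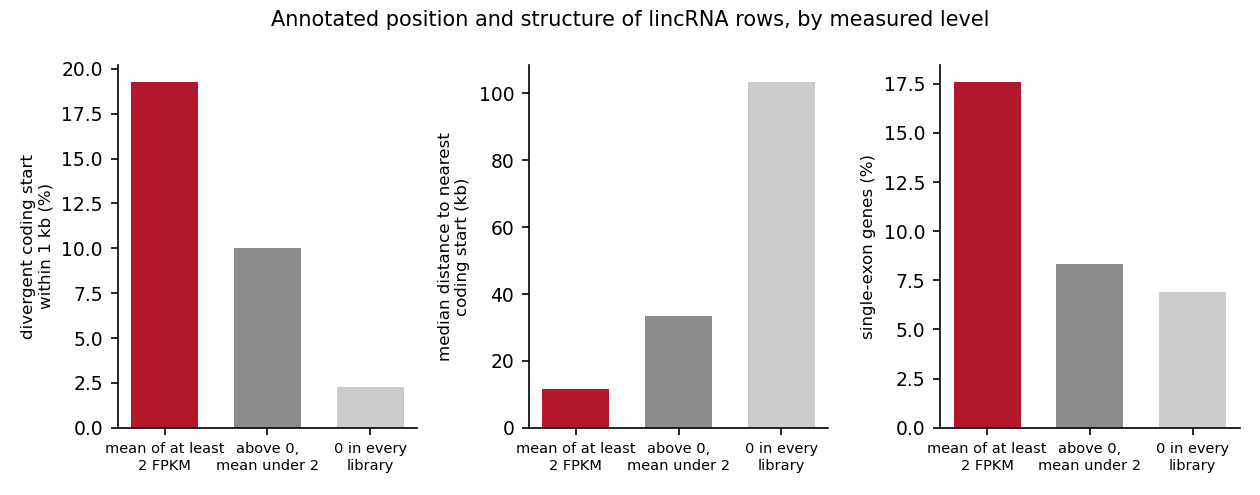
Bars give, from left to right, the share of genes with a divergent coding start within 1 kb (%), the median distance to the nearest coding start (kb) and the share of single-exon genes (%). Each panel has the 244 lincRNA genes in red, lincRNA rows above 0 with a mean under 2 FPKM in dark grey and rows at 0 in every library in light grey. The measured genes lie closer to coding starts, at a median of 11.6 kb against 33.4 and 103 kb.

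The first comparison asked which lincRNA genes differed between cells with a guide and cells with the empty vector. None of the 244 passed the threshold (limma on log2(FPKM + 1), Benjamini-Hochberg adjusted p under 0.05 over 12929 genes), as none of the 12929 genes did, a background of 0.0%. At an unadjusted p under 0.05 there was 1 lincRNA gene (0.41%), against 169 genes of every biotype (1.31%). With the replicate number as a block, 0 lincRNA genes and 5 genes in all were called (0.0387%), and 15 lincRNA genes (6.15%) had an unadjusted p under 0.05, against 739 genes in all (5.72%). Cebpe itself, at a log2 difference of -1.75 (SE 0.36 without the block), was called in neither fit (limma adjusted p = 0.223 with the block). A gene without a call here can therefore still differ. The median log2 difference, guides minus EV, was 0.01 over the lincRNA genes and -0.00 over all genes tested. It was -0.15 without EV replicate 1 and 0.18 without EV replicate 2, where the replicate numbers are unequal between the groups; with the block it was -0.0097 and 0.033.

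The 4 guide libraries were all above both EV libraries for 3 lincRNA genes and all below for 4, which is 1.23% and 1.64% of the 244, against 2.54% and 2.56% of all genes tested. The 4 below were RP23-32A8.6, 1700025F24Rik, Gm26782 and Gm43634, and the 3 above were 5031425E22Rik, 4632415L05Rik and Gm13632, of which all but RP23-32A8.6 and 1700025F24Rik were named after their values were seen. RP23-32A8.6, a clone gene on chromosome 7 with no assigned role, had the smallest unadjusted p. Its sg2 libraries stood at 2.39 and 0 FPKM and its sg5 libraries at 2.02 and 1.91 FPKM, against 4.39 and 5.23 FPKM in EV. Its log2 difference was -1.31 (SE 0.53, unadjusted p = 0.0467 by limma, adjusted p = 1.00). 1700025F24Rik stood at 6.55 and 4.36 FPKM in sg2 and at 7.29 and 5.73 FPKM in sg5, against 9.29 and 7.85 FPKM in EV. Its log2 difference of -0.47 (SE 0.21) had a limma adjusted p of 1.00, and of 0.708 with the replicate block. For both genes every guide library lay below every EV library, without passing the test.

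The next smallest p-values belonged to RP23-244C22.6, Gm15555 and RP23-341H2.4, with log2 differences of -0.70 (SE 0.36), 0.49 (SE 0.26) and -0.30 (SE 0.17). With the block, Gm28625 and Gm26611 had the smallest unadjusted p among the lincRNA genes, and neither passed. Gm28625 stood at 6.90 and 20.2 FPKM in sg2 and at 5.13 and 23.2 FPKM in sg5, against 13.1 and 34.3 FPKM in EV, in replicates 1 and 2. Both guides were under the EV library of the same number, and the groups overlap because the replicates 2 are higher throughout. Gm26611 stood at 42.7 and 12.8 FPKM in sg2 and at 54.3 and 15.7 FPKM in sg5, against 27.5 and 8.995 FPKM in EV, again in replicates 1 and 2. Here both guides were above the EV library of the same number. The log2 difference of Gm26611 was 0.70 (SE 0.13, limma adjusted p = 0.443) with the block and 0.70 (SE 0.72) without it, where it was -0.06 without EV replicate 2.

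Neat1 and Malat1, the best known of the genes, showed no called difference by guide. The log2 difference of Neat1 was 0.21, with an SE of 0.57 (limma adjusted p = 1.00) without the block and of 0.07 (unadjusted p = 0.0195, limma adjusted p = 0.806) with it. Every guide library was above the EV library of the same number, by a log2 difference between 0.15 and 0.27. The log2 difference of Malat1 was -0.17, with an SE of 0.45 without the block and of 0.09 (limma adjusted p = 0.824) with it, and 3 of the 4 guide libraries were below the EV library of the same number. In the fits without the block, leaving out a library leaves the numbers unequal between the groups. There the value was -0.43 for Neat1 without EV replicate 1 and -0.02 without sg5 replicate 2, and for Malat1 it was 0.40 without EV replicate 2 and 0.03 without sg2 replicate 1.

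Taken one at a time, the guides gave the same picture. For sg5 against EV, 0 of 244 lincRNA genes and 0 of 12929 genes passed limma's threshold (0.0%), and for sg2 against EV 0 lincRNA genes and 1 gene in all did (0.00773%). At an unadjusted p under 0.05 there was 1 lincRNA gene for sg5 (0.41%, background 1.36%) and 2 for sg2 (0.82%, background 1.16%). With the block there were 18 for sg5 (7.38%, background 8.04%) and 17 for sg2 (6.97%, background 4.3%), and 0 lincRNA genes were called in both, against 2 genes in all for sg5 (0.0155%) and 3 for sg2 (0.0232%). For sg5 against sg2, 0 lincRNA genes and 0 genes in all passed (0.0%), with 1 lincRNA gene at an unadjusted p under 0.05 (background 0.859%), and 13 (5.33%, background 5.29%) with the block. The 2 guide comparisons with EV share the EV libraries. The smallest p for sg5 against EV belonged to Gm28497, at 3.02 and 2.42 FPKM with sg5 against 5.07 and 4.41 FPKM in EV (log2 difference -0.63, SE 0.22, limma adjusted p = 1.00). The smallest p between the guides belonged to 2010013B24Rik, at 4.73 and 4.62 FPKM with sg5 against 3.09 and 2.80 FPKM with sg2 (log2 difference 0.52, SE 0.19, limma adjusted p = 1.00). Neither difference passed. Counting the sg5 replicate 2 library as sg2, as its other labels have it, also called 0 lincRNA genes in each of these comparisons.

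The second comparison set the libraries numbered 2 against those numbered 1, within the vector groups. Over 3 pairs, 125 of 244 lincRNA genes passed the threshold (51.2%), against 47.1% of all 12929 genes tested, so the share called was close to the background; at an unadjusted p under 0.05 the shares were 59.8% and 56.3%. The direction was not: 94 lincRNA genes (38.5%) rose in replicate 2 and 31 (12.7%) fell, against 20.2% and 26.9% of all genes. The median log2 difference, replicate 2 minus replicate 1, was 0.30 over the lincRNA genes and -0.04 over all genes tested. The 3 replicate 2 libraries were all above the 3 replicate 1 libraries for 113 lincRNA genes (46.3%, background 27.0%) and all below for 41 (16.8%, background 34.1%). The count called was 77 without EV replicate 1, 75 without EV replicate 2, 65 without sg2 replicate 1 and 64 without sg2 replicate 2, each of which leaves 2 pairs, and 72 with no filter on low values. The labels do not say what the number stands for.

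The pattern was present in each vector group. The median log2 difference over the lincRNA genes was 0.27 in sg2, 0.23 in sg5 and 0.31 in EV, against -0.04 in each group over all genes tested. Of the 244 genes, 130 were higher in replicate 2 in all 3 groups and 57 were lower in all 3, a count not made over all genes tested. Taken singly, 153 of the 244 were higher in sg2, 157 in sg5 and 159 in EV. Of the 12929 genes tested, 5984, 6000 and 6005 were higher. The lincRNA genes took 0.785%, 0.850% and 0.803% of the summed FPKM in the replicates 2 of sg2, sg5 and EV, against 0.613%, 0.682% and 0.637% in the replicates 1. Genes under 200 nt took 21.5%, 15.4% and 16.4% of the summed FPKM in the replicates 2 and 9.03%, 9.67% and 6.77% in the replicates 1, and their part in the result was not tested. Mast cell and basophil markers summed to between 2651 and 3160 FPKM in the replicates 2 and between 1169 and 2703 FPKM in the replicates 1, with Tpsb2 at 0.197 FPKM or less. Lymphoid markers summed to between 48.8 and 116 FPKM in the replicates 2 and between 20.99 and 42.2 FPKM in the replicates 1, and monocyte and macrophage markers to between 37.5 and 50.7 FPKM and between 28.8 and 34.8 FPKM. Eosinophil markers summed to between 55.3 and 253 FPKM in the replicates 2 and between 8.91 and 76.4 FPKM in the replicates 1. The defining markers Cd3e, Ly6c2, Mrc1 and Ccr3 of these types averaged under 0.1 FPKM, and the part of these 4 marker lists in the result was not tested. Myeloid progenitor markers summed to between 819 and 860 FPKM in the replicates 2 and between 729 and 1018 FPKM in the replicates 1. Of the 7 tested, 1 was called higher in replicate 2 and 2 lower. Mpo measured 12.3, 14.8 and 13.0 FPKM in the replicates 2 of sg2, sg5 and EV, against 41.5, 123 and 151 FPKM in the replicates 1. The part of this list was not tested either. Without those short genes the lincRNA share was 1.00%, 1.00% and 0.959% in the replicates 2, against 0.674%, 0.755% and 0.683% in the replicates 1.

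Some genes entered the set through 1 replicate number only. For 32 genes the mean was at least 2 FPKM in the replicates 2 and under 2 in the replicates 1, of which 22 were called, and for 18 it was the reverse, of which 6 were called. Such genes had to differ. Among the 194 genes that reached a mean of 2 FPKM in both, 72 were called higher in replicate 2 and 25 lower, with a median log2 difference of 0.27.

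**Figure D2:**
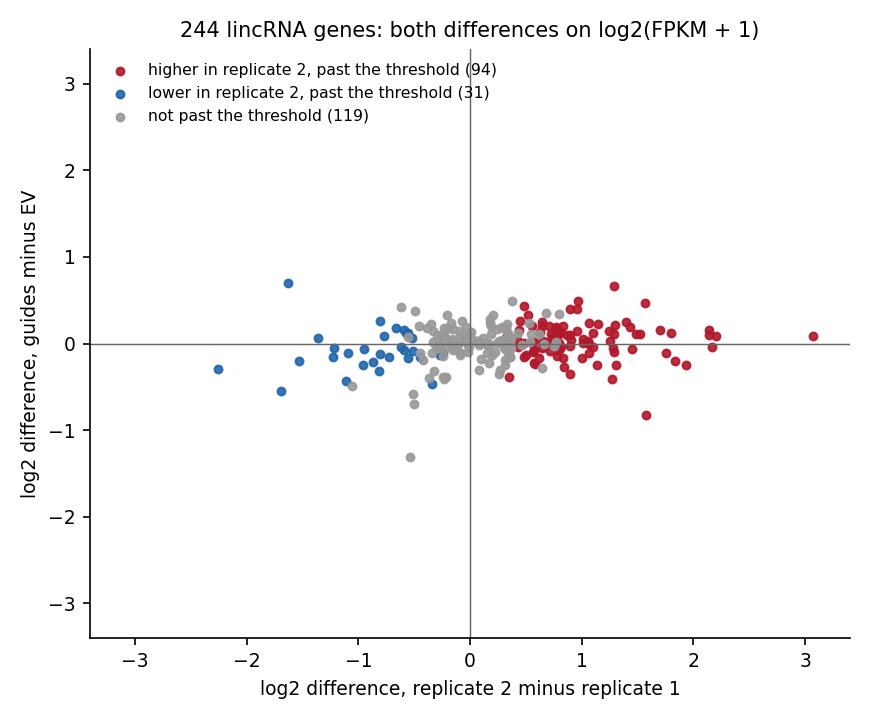
Each point is 1 of the 244 lincRNA genes, placed by its log2 difference between replicates 2 and 1 (horizontal axis) and between guides and EV (vertical axis), both on log2(FPKM + 1). Red points (94) were called higher in replicate 2, blue points (31) lower, and grey points (119) were not called; none was called by guide, and the points spread far more along the horizontal axis.

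Both nuclear architectural RNAs in the set rose in replicate 2. Neat1, the scaffold of the paraspeckle, measured 730, 778 and 645 FPKM in the replicates 2 of sg2, sg5 and EV, against 294, 317 and 266 FPKM in the replicates 1. The lowest replicate 2 library thus stood above the highest replicate 1 library by a wide margin, in guide and EV cells alike. The log2 difference was 1.29 (SE 0.05, limma adjusted p = 0.00156). Malat1 (chr19:5795690-5802672, minus strand), its neighbour on chromosome 19, measured 58.2, 56.7 and 69.2 FPKM in the replicates 2 and 27.3, 32.0 and 31.0 FPKM in the replicates 1. Its log2 difference was 1.00 (SE 0.09, limma adjusted p = 0.00263), also with no overlap. Firre, Tug1 and 2900097C17Rik, other nuclear RNAs of the list, were above 2 FPKM under other deposited biotypes and are not among the 244. Firre rose by a log2 difference of 0.53 (SE 0.09, limma adjusted p = 0.00930), Tug1 fell by 0.41 (SE 0.07, limma adjusted p = 0.0112) and 2900097C17Rik was not called, so 3 of the 5 tested RNAs of the list rose and 1 fell (median 0.53).

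Genes for the proteins that work with these RNAs mostly did not rise with them at the RNA level, and the proteins were not measured. Of 34 paraspeckle protein genes, which encode the proteins bound to Neat1, 24 fell in replicate 2 and 1 rose, with a median log2 difference of -0.45. The gene that rose was Zc3h6, at 6.29, 6.83 and 5.26 FPKM in the replicates 2 against 2.64, 3.35 and 2.08 FPKM in the replicates 1. Of 12 genes for the factors that cut and cap the 3′ ends of Malat1 and Neat1, 6 fell and 0 rose by limma, with a median of -0.25; among them Pop1, a subunit of RNase P, measured 2.50, 1.82 and 3.29 FPKM in the replicates 2 against 3.97, 3.97 and 5.10 FPKM in the replicates 1. Of all genes tested, 26.9% fell and the median was -0.04. By guide, 0 genes of either list passed limma's threshold.

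Among the snoRNA hosts, transcripts whose introns release snoRNAs, Snhg20 and Snhg6 rose in replicate 2 and the other 3 in the set did not pass. Snhg20 (chr11:117076008-117078955, plus strand) measured 39.2, 35.7 and 32.6 FPKM in the replicates 2 of sg2, sg5 and EV, against 16.9, 13.1 and 13.9 FPKM in the replicates 1. Its log2 difference was 1.24 (SE 0.08, limma adjusted p = 0.00186). Snhg6 (chr1:9941959-9944118, minus strand), with Snord87 annotated inside it, measured 40.9, 46.8 and 52.5 FPKM against 33.4, 25.5 and 34.3 FPKM. Its log2 difference of 0.58 (SE 0.12, limma adjusted p = 0.0199) did not pass without either EV library (adjusted p = 0.105) or either sg5 library (adjusted p = 0.0651). The groups did not overlap for either gene.

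Snhg12 (chr4:132308623-132311024, plus strand), which holds Snora16a, Snora44, Snora61 and Snord99, went without a call at 9.99, 11.8 and 10.4 FPKM in the replicates 2 and 13.5, 10.3 and 15.3 FPKM in the replicates 1. Its log2 difference was -0.25 (SE 0.16), and -0.46 without either sg5 library, where it passed (limma adjusted p of 0.0411 and 0.0412). Epb41l4aos measured 27.4, 18.7 and 14.1 FPKM in the replicates 2 and 14.3, 11.3 and 17.3 FPKM in the replicates 1, higher in replicate 2 in both guides and lower in EV. Its log2 difference was 0.43 (SE 0.24), and 0.79 without either EV library, where it passed (limma adjusted p of 0.0327 and 0.0333). Dancr, whose human counterpart is known to hold epidermal cells in the progenitor state, measured 4.83, 3.87 and 2.46 FPKM in the replicates 2 and 4.68, 3.35 and 4.99 FPKM in the replicates 1, with overlap. A further 11 snoRNA hosts, Gas5 among them, averaged at least 2 FPKM under other biotypes. Over the 16 tested hosts of any biotype 5 rose and 6 fell, with a median log2 difference of 0.02; Gas5 fell by 0.93 (limma adjusted p = 0.00284).

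Of 20 genes for the proteins that assemble on snoRNAs, 16 fell in replicate 2 and 0 rose by limma, with a median log2 difference of -0.73, against 26.9% falling and 20.2% rising over all genes tested. Of 20 genes for nonsense-mediated decay factors, which act on many snoRNA host transcripts, 7 fell and 3 rose, with a median of -0.21, shares near that background. By guide, 0 genes of either list passed limma's threshold, and the medians were -0.15 and -0.02.

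MicroRNAs are cut from longer host transcripts and bind messenger RNAs through bases 2 to 8, the seed. By annotation, 8 of the 244 genes hold a microRNA on their own strand, and RefSeq mature sequences (GRCm38.p6) were found for all but the one in 6030443J06Rik. For 10 mature forms the sequence is shown. Only the level of the host is described here. It is no measure of the mature forms, which were not measured. Capitals mark the seed.
mmu-miR-142a-5p: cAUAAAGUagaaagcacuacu
mmu-miR-142a-3p: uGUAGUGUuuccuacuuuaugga
mmu-miR-6516-5p: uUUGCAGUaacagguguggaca
mmu-miR-1839-5p: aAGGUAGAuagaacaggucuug
mmu-miR-101a-3p: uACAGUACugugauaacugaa
mmu-miR-191-5p: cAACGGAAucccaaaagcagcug
mmu-miR-425-5p: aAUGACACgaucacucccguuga
mmu-let-7d-5p: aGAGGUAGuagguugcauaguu
mmu-let-7f-5p: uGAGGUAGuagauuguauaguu
mmu-let-7a-5p: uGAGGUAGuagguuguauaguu

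The 3 let-7 sequences, from 6720427I07Rik, share the seed GAGGUAG, and none of the other printed seeds is shared. Mir142hg (chr11:87755577-87757270, plus strand) hosts miR-142, which is abundant in blood cells and lies at chr11:87756867-87756887 (5p arm) and chr11:87756903-87756925 (3p arm). It was the most abundant host, at 136, 112 and 121 FPKM in the replicates 2 of sg2, sg5 and EV, against 63.2, 72.7 and 73.1 FPKM in the replicates 1. All replicates 2 were above all replicates 1, and the log2 difference was 0.81 (SE 0.11, limma adjusted p = 0.00619).

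Gm10505, host of miR-7216, also rose, at 9.78, 9.33 and 7.84 FPKM in the replicates 2 against 3.59, 3.66 and 3.68 FPKM in the replicates 1 (log2 difference 1.10, SE 0.10, limma adjusted p = 0.00299). Snhg20, described above, holds miR-6516. E130102H24Rik, host of miR-101a, measured 9.19, 10.2 and 9.38 FPKM in the replicates 2 and 7.18, 6.64 and 6.79 FPKM in the replicates 1. 2900076A07Rik, host of miR-1839, measured 23.8, 27.4 and 23.1 FPKM in the replicates 2 and 19.8, 19.4 and 19.1 FPKM in the replicates 1. Both rose by less, with log2 differences of 0.43 (SE 0.09, limma adjusted p = 0.0172) and 0.33 (SE 0.08, limma adjusted p = 0.0244). Neither passed without any 1 of the 6 libraries, where the adjusted p was between 0.0611 and 0.0885 for E130102H24Rik and between 0.0793 and 0.0892 for 2900076A07Rik.

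6720427I07Rik, the let-7 host, measured 2.08, 3.46 and 3.25 FPKM in the replicates 2 and 1.84, 1.33 and 1.24 FPKM in the replicates 1. It did not pass (log2 difference 0.66, SE 0.23, limma adjusted p = 0.0719), and passed without either sg2 library, at 0.93 (adjusted p of 0.0490 and 0.0489). 4833445I07Rik, host of miR-191 and miR-425, measured 2.56, 1.37 and 1.25 FPKM against 3.18, 2.28 and 2.61 FPKM, lower in replicate 2 in each group but without a call. 6030443J06Rik was not called either. These 3 hosts reached a mean of 2 FPKM in 1 replicate number only.

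The gene with the largest ratio of means among those with a proper name was Mirt1 (chr19:53443230-53464796, minus strand), first named in the mouse heart after infarction; no microRNA is annotated in it. It measured 35.8, 33.2 and 33.4 FPKM in the replicates 2 of sg2, sg5 and EV, against 2.90, 3.77 and 2.95 FPKM in the replicates 1. The 2 sets of 3 libraries were each tight and lay far apart. The mean was 34.1 ± 1.44 FPKM in the replicates 2 and 3.21 ± 0.488 FPKM in the replicates 1 (SD, n = 3 each), a ratio of 10.6. The log2 difference was 3.07 (SE 0.10, limma adjusted p = 0.00151).

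Of the other lincRNAs with a known role in the set, Pvt1, Trp53cor1 and Crnde rose in replicate 2. Over the 11 tested RNAs of that list, of any biotype, 3 rose and 2 fell, with a median log2 difference of -0.03. The ones that fell were Gas5 and Jpx, a lincRNA gene under the 2 FPKM limit (log2 difference -0.81, SE 0.20, limma adjusted p = 0.0307). Pvt1 (chr15:62037986-62378096, plus strand), the neighbour of the Myc oncogene, measured 36.8, 46.0 and 28.2 FPKM in the replicates 2 of sg2, sg5 and EV, against 11.5, 11.3 and 14.4 FPKM in the replicates 1. The groups did not overlap, and both guides differed more between the numbers than EV did. Its log2 difference was 1.49 (SE 0.21, limma adjusted p = 0.00642), and 1.43 without either sg2 library, where it did not pass (adjusted p of 0.0546 and 0.0547).

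Trp53cor1 (chr17:29057430-29079179, minus strand), also called lincRNA-p21, is a p53 target next to Cdkn1a. It measured 16.1, 13.8 and 14.4 FPKM in the replicates 2 and 8.34, 8.84 and 8.64 FPKM in the replicates 1 (log2 difference 0.71, SE 0.09, limma adjusted p = 0.00479). Crnde, first described in colorectal tumours, measured 12.6, 13.6 and 9.89 FPKM against 8.16, 8.69 and 8.85 FPKM. Its log2 difference of 0.44 (SE 0.12, limma adjusted p = 0.0383) did not pass without either sg2 library (adjusted p of 0.173 and 0.174) or either sg5 library (adjusted p of 0.151 and 0.152).

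Lockd and Bvht were not called. Lockd (chr6:134929092-134956798, plus strand) lies downstream of Cdkn1b, a cell cycle inhibitor. It was among the steadier genes, at 41.8, 34.6 and 36.4 FPKM in the replicates 2 and 43.9, 48.6 and 41.6 FPKM in the replicates 1. Bvht, known from heart cell commitment in mouse, measured 2.86, 5.13 and 4.70 FPKM against 6.51, 5.57 and 5.95 FPKM, with every replicate 2 below every replicate 1 but a limma adjusted p of 0.120.

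**Figure D3:**
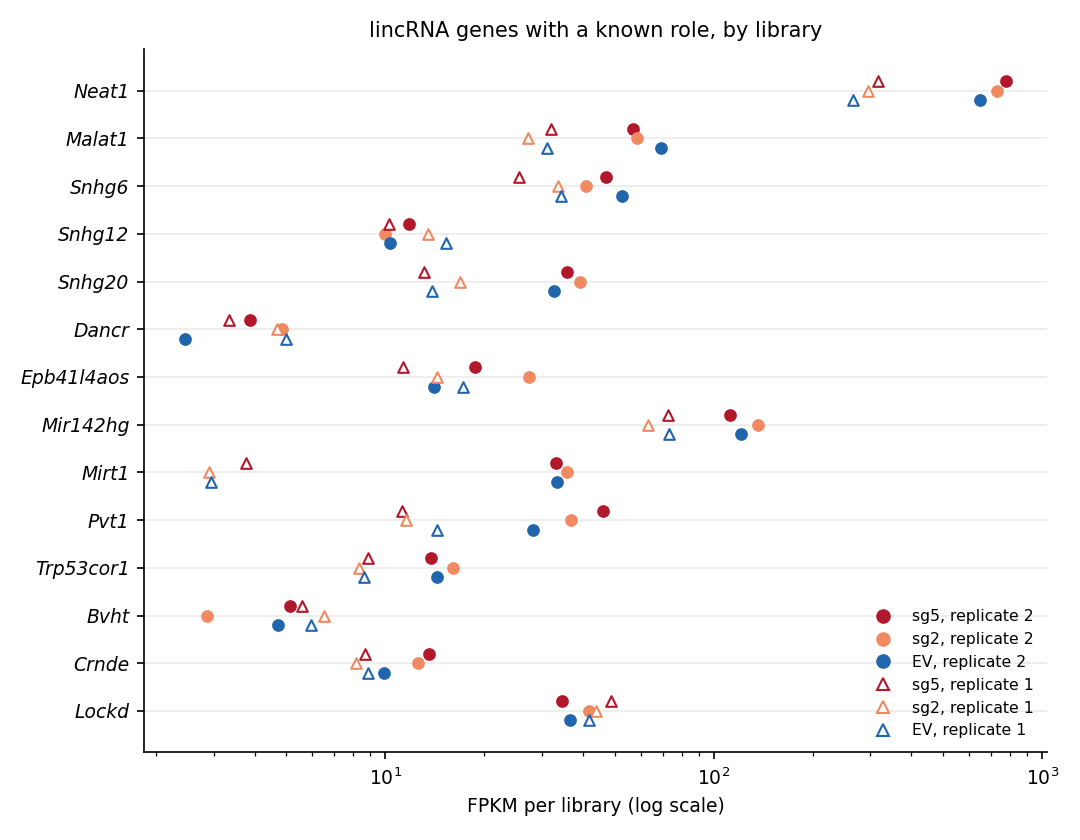
FPKM per library on a logarithmic axis for the 14 lincRNA genes of the role lists, with filled circles for replicates 2, open triangles for replicates 1, red for sg5, orange for sg2 and blue for EV. Circles lie right of triangles for Neat1, Malat1, Snhg6, Snhg20, Mir142hg, Mirt1, Pvt1, Trp53cor1 and Crnde, and left of them for Bvht. For Neat1 the order sg5, sg2, EV holds within both numbers.

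Of all 25 genes with a proper name, 12 rose in replicate 2 (48.0%), 1 fell (4.0%) and 12 were not called, against 20.2% and 26.9% of all genes tested. Slmapos2, an antisense-named gene of chromosome 14, measured 34.7, 35.2 and 26.5 FPKM in the replicates 2, against 12.2, 11.5 and 10.9 FPKM in the replicates 1 (log2 difference 1.39, SE 0.09, limma adjusted p = 0.00191). Kantr, a gene of the X chromosome, measured 38.5, 34.5 and 36.1 FPKM against 23.7, 21.3 and 17.7 FPKM (log2 difference 0.78, limma adjusted p = 0.00446), and Cep83os also rose. The gene that fell was Platr27, one of a group first found with pluripotency in embryonic stem cells. It measured 3.36, 3.41 and 5.14 FPKM in the replicates 2 and 9.63, 7.79 and 11.7 FPKM in the replicates 1 (log2 difference -1.11, SE 0.10, limma adjusted p = 0.00281). Platr10, Platr11, Platr15 and Platr25 were not called.

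The genes without a proper name divided in a like way. Of 131 Gm genes, 50 rose in replicate 2 and 19 fell. Of 73 Rik genes, 26 rose and 8 fell, and of 15 clone genes 6 rose and 3 fell. Their median log2 differences were 0.31, 0.21 and 0.31, against 0.43 for the genes with a proper name and -0.04 for all genes tested, of which 20.2% rose and 26.9% fell.

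The most abundant gene was one of them. The log2 difference of Gm43549 was 1.06 (SE 0.06, limma adjusted p = 0.00179) and the ratio of the replicate 2 mean to the replicate 1 mean was 2.08. Gm44386 (chr6:86513891-86516273, minus strand) measured 9.67, 9.999 and 8.78 FPKM in the replicates 2, against 1.33, 1.26 and 1.23 FPKM in the replicates 1. On the same strand of chromosome 6, 2310040G24Rik (chr6:86483376-86488227) went the other way, at 0.355, 0.254 and 1.11 FPKM in the replicates 2 against 6.64, 6.39 and 5.995 FPKM in the replicates 1. Each passed the 2 FPKM limit through 1 replicate number only, Gm44386 through the replicates 2 and 2310040G24Rik through the replicates 1, so each had to differ and the values are a description.

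2310047D07Rik and Gm29264 overlap on opposite strands of chromosome 5, and without strand their reads cannot be told apart. 2310047D07Rik measured 6.12, 7.36 and 6.33 FPKM in the replicates 2, against 0.330, 0.998 and 0.823 FPKM in the replicates 1. Gm29264 measured 5.85, 5.75 and 5.67 FPKM against 0.656, 0.612 and 0.343 FPKM. Both passed the limit through the replicates 2 only, so these values too are a description. D730003I15Rik on chromosome 1 and C130083M11Rik and AI504432 rose as well, with log2 differences of 1.84, 1.15 and 0.89.

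Among the genes that fell, Gm26611 on chromosome 9 was the most clearly called. As given above, its replicates 2 lay between 8.995 and 15.7 FPKM and its replicates 1 between 27.5 and 54.3 FPKM (log2 difference -1.63, SE 0.07, limma adjusted p = 0.00167). Gm28187 on chromosome 1 measured 16.8, 17.8 and 17.9 FPKM in the replicates 2, against 44.0, 53.6 and 43.1 FPKM in the replicates 1 (log2 difference -1.36, limma adjusted p = 0.00190). Gm29066, Gm44160 and Gm43153 fell by 1.69, 1.53 and 1.23 on the log2 scale. Gm37267, called as well, passed the limit through the replicates 1 only, at a mean of 4.84 FPKM there and of 1.52 FPKM in the replicates 2. 5033430I15Rik, AI662270, 1810006J02Rik and Gm26825 fell by 0.73, 0.59, 0.55 and 0.45. Gm26825 and AI662270 are among the 10 most abundant of the 244, so higher and lower genes both occur at the top of the range.

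Of the other most abundant genes, Gm16194 rose by a log2 difference of 0.43, Gm26880 by 0.66, AY036118 by 0.97 and Gm12648 by 0.31, while Gm26619 fell by 0.56. Each of these 5 calls was lost in at least 1 of the fits that left out a library. The adjusted p reached 0.0962 for Gm16194 (without EV replicate 2) and 0.132 for Gm26880 (without EV replicate 2). It reached 0.0976 for AY036118 (without sg2 replicate 1), 0.113 for Gm12648 (without EV replicate 1) and 0.0759 for Gm26619 (without EV replicate 2). Gm42418 and Gm26917, the neighbours of AY036118, were not called, and both passed without either sg5 library.

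**Figure D4:**
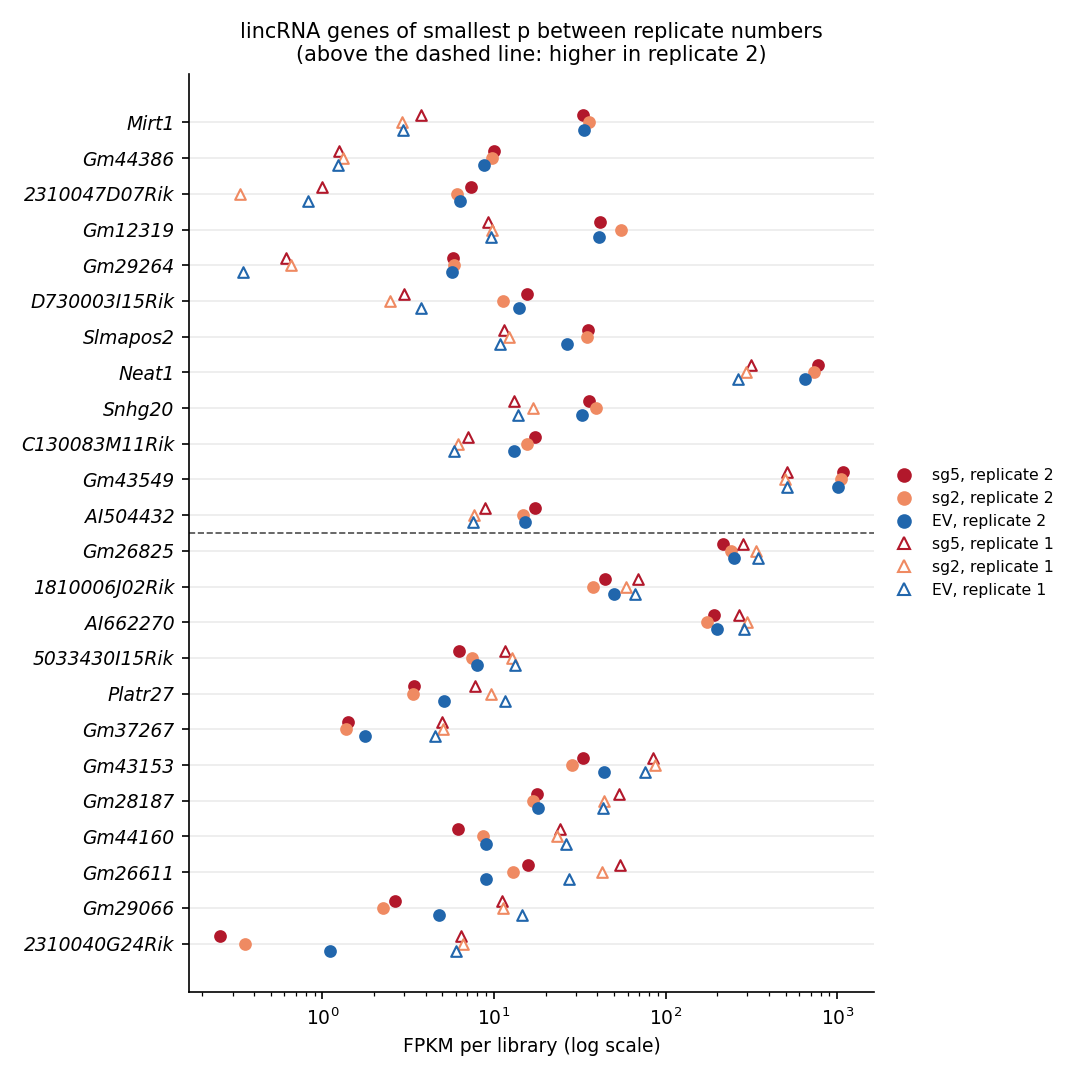
FPKM per library on a logarithmic axis for the 24 lincRNA genes called with the smallest p between replicate numbers, 12 higher in replicate 2 above the dashed line and 12 lower below it. Filled circles are replicates 2, open triangles replicates 1, and colours give the vector group (sg5 red, sg2 orange, EV blue). In each of the 24 genes circles and triangles stand apart; 5 of them (Gm44386, Gm29264, 2310047D07Rik, 2310040G24Rik and Gm37267) reached a mean of 2 FPKM in 1 replicate number only and so had to differ.

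Promoter windows, from 250 bases before to 50 bases after the RefSeq start (GRCm38.p6), were found for 110 of the 244 genes, 129 windows in all. Windows of 3 genes that rose (Mirt1, Malat1 and Snhg20) and of Gm26611, which fell, are shown so that genes that moved together and apart can be compared. They lie at chr19:53464747-53465046 (minus), chr19:5802623-5802922 (minus), chr11:117076533-117076832 (plus) and chr9:88858718-88859017 (plus). The Snhg20 window lies inside the span given above for that gene, since its RefSeq start is downstream of its GENCODE start. Capitals mark matches to 5 motifs on either strand, which may overlap: the C/EBP core TTGCNNAA, the hypoxia response core ACGTG, the GC box GGGCGG, the CCAAT box CCAAT and the TATA box TATAAA.
Mirt1 promoter: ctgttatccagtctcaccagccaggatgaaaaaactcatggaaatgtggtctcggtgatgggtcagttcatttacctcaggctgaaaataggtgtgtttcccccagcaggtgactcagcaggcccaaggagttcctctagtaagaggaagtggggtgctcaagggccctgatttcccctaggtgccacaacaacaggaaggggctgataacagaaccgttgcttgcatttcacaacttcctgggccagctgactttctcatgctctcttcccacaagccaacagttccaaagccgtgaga
Malat1 promoter: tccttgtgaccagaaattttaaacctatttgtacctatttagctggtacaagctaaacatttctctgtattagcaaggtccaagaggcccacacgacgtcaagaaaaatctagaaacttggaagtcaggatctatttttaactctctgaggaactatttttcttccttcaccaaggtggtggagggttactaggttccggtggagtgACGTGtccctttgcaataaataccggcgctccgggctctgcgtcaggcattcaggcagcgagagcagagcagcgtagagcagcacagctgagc
Snhg20 promoter: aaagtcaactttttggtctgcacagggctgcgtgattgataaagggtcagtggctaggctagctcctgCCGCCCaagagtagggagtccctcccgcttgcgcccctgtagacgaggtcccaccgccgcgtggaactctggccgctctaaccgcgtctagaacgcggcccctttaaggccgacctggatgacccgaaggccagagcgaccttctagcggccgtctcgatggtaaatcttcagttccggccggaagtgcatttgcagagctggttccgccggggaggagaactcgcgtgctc
Gm26611 promoter: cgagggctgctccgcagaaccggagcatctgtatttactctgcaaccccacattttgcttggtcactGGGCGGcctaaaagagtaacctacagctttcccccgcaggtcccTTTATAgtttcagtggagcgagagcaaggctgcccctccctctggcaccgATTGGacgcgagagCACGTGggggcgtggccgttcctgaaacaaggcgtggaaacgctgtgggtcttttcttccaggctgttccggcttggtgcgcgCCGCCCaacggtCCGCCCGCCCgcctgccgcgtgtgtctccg

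The Mirt1 window holds 0 matches to the 5 motifs, the Malat1 window 1 ACGTG and the Snhg20 window 1 GC box. The Gm26611 window holds 2 ACGTG matches, 4 GC boxes, 1 CCAAT box and 1 TATA box. Its 2 ACGTG matches are the 2 strands of 1 CACGTG, and so 1 site. Over the lincRNA windows the C/EBP core was present in 10.1%, against 10.8% of all 32851 windows, and the CCAAT box in 37.2% against 37.4%. The GC box was in 51.2% against 35.7%, ACGTG in 29.5% against 19.6%, and the TATA box in 10.1% against 13.6%. These matches are letters in a window and were not tested.

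Among the biotypes listed here, at a mean of at least 2 FPKM, the lincRNA genes had the highest median difference between the numbers. Other biotypes, such as those of short RNAs, were not compared. The median log2 difference was 0.30 for them, 0.25 for 122 processed transcripts, 0.23 for 181 antisense genes and 0.14 for 120 genes marked TEC (to be experimentally checked). It was -0.08 for 10048 protein-coding genes and -0.22 for 200 processed pseudogenes. In the antisense class 67 rose and 21 fell, in processed transcripts 43 and 22, and in protein-coding genes 2090 and 3177. Processed transcripts, antisense genes and TEC genes thus lay on the same side as the lincRNA genes, and processed pseudogenes on the other. The biotypes were not tested against each other.

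**Figure D5:**
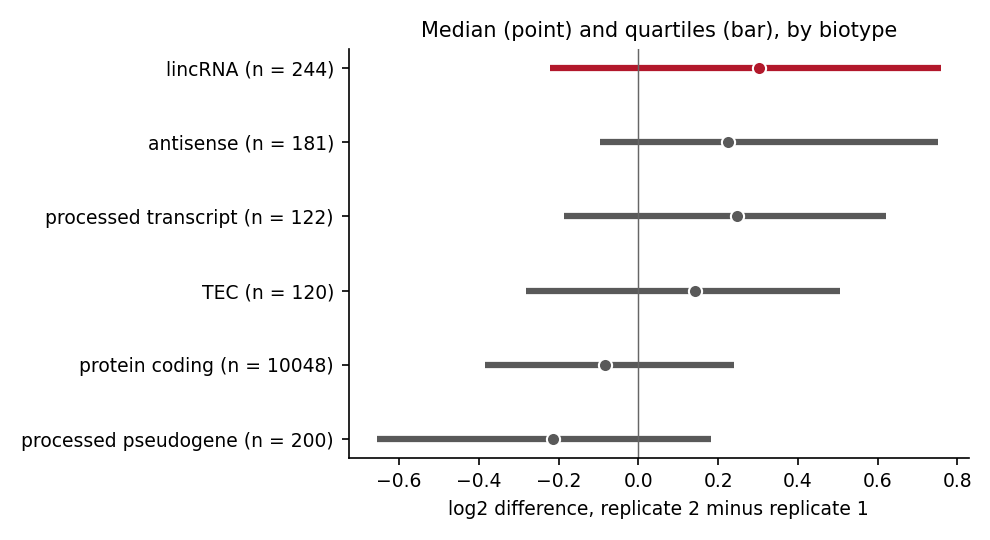
Median log2 difference between replicates 2 and 1 (points) with the lower and upper quartile over genes (bars), for 6 deposited biotypes at a mean of at least 2 FPKM. The lincRNA genes, in red, have a median of 0.30 and protein-coding genes one of -0.08, and the quartile bars of all 6 overlap.

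Genes that rose outnumbered those that fell in each class of exon number and level. Of 42 single-exon genes 17 rose in replicate 2 and 6 fell, of 90 genes with 2 exons 32 rose and 6 fell, and of 107 with 3 or more exons 44 rose and 19 fell. Of the 71 genes averaging 10 FPKM or more, 36 rose and 14 fell, and of the 173 lower ones 58 rose and 17 fell. Of all genes tested 20.2% rose and 26.9% fell.

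For the 46 genes with a divergent coding partner within 1 kb, 15 rose in replicate 2 and 3 fell. Of the other 193 annotated lincRNA genes 78 rose and 28 fell, and of all genes tested 20.2% rose and 26.9% fell. The difference between the numbers had the same sign in gene and partner for 28 of 46 pairs, which is a description. In 8 divergent pairs both genes were called, in the same direction for 4. For 137 other lincRNA genes, paired with the gene of the nearest coding start, the sign was the same in 77. Both genes were called in 43 of those 137 pairs, in the same direction for 26. Gm12319 starts 709 bp from Eno3, the muscle enolase gene. Gm12319 measured 55.1, 41.3 and 41.1 FPKM in the replicates 2 of sg2, sg5 and EV, against 9.80, 9.20 and 9.55 FPKM in the replicates 1, a log2 difference of 2.14, while Eno3 differed by 2.72. 5033430I15Rik starts 245 bp from Atxn1, and they fell by 0.73 and 0.75. The opposite case included Gm32950, which passed the limit through the replicates 2 only, at a mean of 4.42 FPKM there against 1.22 FPKM in the replicates 1, while Rpl22l1, 100 bp away, fell by 1.62 (pairs chosen after they were seen).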

How the data were processed

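RNA from 6 libraries of 32D cells was sequenced (TruSeq kit, HiSeq 4000, per the labels). The authors deposited FPKM values per gene. The tools kallisto 0.43.0 and DESeq2 and the builds GRCm38 and mm10 are named, with no role, per the submitters' processing notes; strand use and the other steps are not stated there. Only these FPKM values were used, so no count model was run. Whole fragments were looked for in low values of long transcripts, and between 93.2% and 98.0% were whole within 0.15 of a fragment, assuming 200 nt fragments, giving the implied depth. The floor for a value of 0, a count of 3 fragments over 1 kb, equals 0.0658 to 0.0952 FPKM by library; this floor allows for counting error alone.

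The 244 lincRNA genes and all gene lists were chosen with earlier results of these data known. Values were tested as log2(FPKM + 1) with limma 3.58.1 in R 4.3.3 over the 12929 genes of mean at least 1 FPKM, with Benjamini-Hochberg adjustment and a threshold of 0.05; all 244 passed that filter. Guides against EV, each guide against EV and sg5 against sg2 were fitted over group means, and replicate 2 against replicate 1 with vector group as a term. The fit was tested on simulated data. The replicate numbers pair the libraries: the difference between numbers correlated across genes at 0.611 (sg2 and EV), 0.591 (sg5 and EV) and 0.583 (sg5 and sg2), 6 of 6 libraries correlated best with one of the same number, and the first principal component held 55.8% of the variance. Alternatives were a pseudocount of 0.1, no filter, rescaling by the median ratio, the replicate block, no group term, leaving out each library, and counting the sg5 replicate 2 library as sg2.

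Genes were named as all members of the role lists, the 10 of highest mean, up to 12 called in each direction by p (5 of smallest p where none passed) and 3 on each side of the 2 FPKM limit. For partner lists the rule took the 2 of smallest p between guides and EV. Not all genes so picked are described, and of the partner genes only Zc3h6 and Pop1 are. Other genes, such as microRNA hosts, further genes with a proper name and neighbours, were named after their values were seen. Positions are from GENCODE M21, sequences from RefSeq (GRCm38.p6). Tables were made with Python 3.11.15, pandas 2.3.3, numpy 2.4.6 and scipy 1.17.1, and figures with matplotlib 3.10.9.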

Additional observations from a re-analysis of the deposited data

Results flagged for a closer look

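Of 64 named lincRNA genes checked, 6 stood out. In 4 of them the sg5 libraries lay above, and the sg2 libraries below, the EV library of the same number. The sg5 minus sg2 log2 difference was 0.401 for 4930519L02Rik, 0.525 for 2010013B24Rik, 0.427 for C030037D09Rik and 0.409 for 2310047D07Rik. Among the rules that named 4930519L02Rik, 2010013B24Rik and C030037D09Rik was a small p between sg5 and sg2, so their order is a description. How many of all genes tested show this order was not counted. None of the 4 passed limma's test of sg5 against sg2 (adjusted p = 1.00 for each, and 0.854 with the replicate block).

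In 2 others 1 of the 4 guide libraries stood apart, by a gap over the whole range above Dixon's 95% critical value. For Platr11 the ratio was 0.937: sg5 replicate 2 measured 16.3 FPKM, and the other guide libraries between 8.63 and 9.12 FPKM, with EV at 12.3 and 12.5 FPKM. For 3110083C13Rik it was 0.911: sg2 replicate 1 measured 7.75 FPKM, and the other guide libraries between 4.37 and 4.67 FPKM, with EV at 7.33 and 6.13 FPKM. Chance alone marks about 1 in 20 such groups.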

How the results depend on the processing

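The count of lincRNA genes called was 0 in each guide comparison under each alternative. The count over all genes moved: for guides against EV it was 0, 6 with no filter, 5 with the replicate block, between 0 and 1 without a library, and between 0 and 2 with the block and a library left out (alternatives chosen after seeing the data; 2 without sg2 replicate 1). For sg2 against EV it was 1, 3 with the block, and 0 with no filter, with the sg5 replicate 2 library counted as sg2, and without any library. For sg5 against EV it was 0, 18 with no filter and 2 with the block, and for sg5 against sg2 0 and 23 with no filter. The replicate block changed no other call. Between replicate numbers the 125 lincRNA genes called became 72 with no filter, where more genes were tested, and between 64 and 94 without a library, where 1 pair fewer was left; over all genes 6089 became between 3036 and 4277. Rescaling moved the median of the lincRNA genes between numbers to 0.34. Without a library and without the block, where the numbers are unequal between groups, the guide difference ranged from -0.43 to 0.85 for Neat1, from -0.73 to 0.40 for Malat1 and from -0.060 to 1.45 for Gm26611; also Neat1 -0.02 and Malat1 0.03. Between numbers it ranged from -0.38 to 0.10 for Dancr, from -0.17 to 0.017 for 4930519L02Rik and from -0.20 to 0.035 for Lppos; the cause was not tested. Of 600 values for 60 named genes between numbers, 526 kept direction and call, 53 lost and 15 gained the call, and 6 changed sign. Each group has 2 libraries, and at 2 FPKM a transcript of 1 kb rests on between 63.0 and 91.2 fragments.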
